A study of Mus musculus with 60 samples.

Results

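The levels of 10 mouse genes that write, maintain, erase or feed the erasure of DNA methylation were followed through every group of fibroblasts in the study. They are the Tet dioxygenases Tet1, Tet2 and Tet3, the DNA methyltransferases Dnmt1, Dnmt3a and Dnmt3b, the catalytically inactive partner Dnmt3l, the Dnmt1 recruiter Uhrf1, and the sodium-dependent ascorbate transporters Slc23a1 and Slc23a2. They were chosen by name, as the 10 rows of 56980 gene identifiers in each of 2 RNA-seq count tables that carry these symbols, and no measured value enters this rule. RNA was read as counts per gene, given here as counts-per-million values (CPM) on library sizes scaled by edgeR's TMM method, and all 10 genes had counts in some libraries of each table. Of the 10, all passed the filter on low counts in the table on reprogramming and 9 passed in the table on inhibitors, where Slc23a1 was not tested.

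The first table holds 36 libraries of tail tip fibroblasts in 12 groups of 3. The D/KO cells (genotype 4FJ_ERCC1_(d/-), from a male mouse of 8 weeks) carry 1 truncated and 1 null allele of Ercc1, which encodes a DNA repair endonuclease subunit, and the WT cells (4FJ_(+/-)_OCT4-GFP, from a female mouse of 22 weeks) do not. Both lines carry 4F, a cassette of Oct4, Sox2, Klf4 and Myc switched on by doxycycline (2 µg/ml), which was given for 0, 2 or 4 days, each with or without VC. VC stands for ascorbic acid (50 µg/ml), the vitamin C that keeps the iron of Tet enzymes in its active state, plus CHIR99021 (3 µM, spelled CHIR-99201 in the labels), an inhibitor of the kinase GSK3 and so an activator of Wnt signalling. The 2 agents were never given apart, and how long the groups labelled day 0 VC had received VC is not given in the sources used here. No group of day 2 or day 4 went without doxycycline. Changes against day 0, called changes with doxycycline below, therefore cannot be told apart from changes with time in culture. The sources give 1 sex and 1 age for each line and no number of mice. The study's methods place its Ercc1 strains, with and without the cassette, on a C57BL6J and FVB hybrid background. They cite another source for the mice with the Oct4-GFP reporter and their cassette, and give no background for these. The lines thus differ in sex, age, reporter, cassette source and Ercc1 alleles, and may differ in background. A difference between D/KO and WT cells cannot be told apart from any of these.

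The second table holds 24 libraries in 8 groups of 3, for which the labels name no doxycycline. It covers D/KO tail tip fibroblasts whose label names no cassette (ERCC1_(d/-), female, 4 weeks) as controls or with Repsox, Vactosertib, DMH-1 or A83-01, WT tail tip and WT skin fibroblasts (ERCC1_(+/+)_WT, female, 14 weeks), and 3 libraries labelled TGFB from the WT 4F line of the first table (female, 22 weeks). Repsox and A83-01 inhibit the TGFb receptor kinase ALK5, DMH-1 inhibits the BMP receptor kinase ALK2, and the study names Vactosertib as an inhibitor of both, so that it is not specific to ALK5 where it is counted below with the ALK5 inhibitors. The study's methods give 3 days of treatment. A legend for the DNA methylation assay gives 0.1 µM of Repsox and Vactosertib and 1 µM of DMH-1 and A83-01, and the methods say that RNA and DNA came from the same samples, so the doses differed between the inhibitors. Nothing in the sources says that the 3 libraries of a group came from separate cultures or animals, and all p-values therefore measure the spread between libraries, which may be technical.

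Depth ran from 16538400 to 18485000 counts a library in the first table and from 17102600 to 30599100 in the second, and no pair of replicates agreed within counting noise. Ercc1 itself was read in both genotypes, with 8.03 to 18.6 CPM in D/KO and 16.8 to 29.1 CPM in WT libraries of the first table. These ranges overlap between 16.8 and 18.6 CPM. In the second table the genotypes overlapped as well, with 13.2 to 23.5 CPM in D/KO and 13.3 to 47.7 CPM in WT libraries. The level of Ercc1 therefore does not check the genotype label of each library in either table. Pou5f1, the Oct4 gene, ran from 0.471 to 2.88 CPM at day 0. With doxycycline it ran from 42.8 to 149.6 CPM in D/KO and from 12.5 to 108 CPM in WT libraries. At day 2 without VC it was at 62.1 to 76.0 CPM in D/KO cells and at 41.5, 12.5 and 48.8 CPM in WT cells, so induction was not alike. The part of unequal induction in the results below was not tested. All 9 fibroblast markers were present in every library, with 33098 to 253183 CPM in sum in the first table. The 4 endothelial markers Pecam1, Cdh5, Kdr and Tie1 summed to between 137 and 692 CPM in the D/KO libraries of that table and to at most 1.54 CPM in the WT libraries, so the D/KO cultures are not described fully by their fibroblast label. Of the 5 leukocyte markers Cd3e was at 0 in all 60 libraries, and the list summed to at most 1.48 CPM in D/KO and to between 6.19 and 20.7 CPM in WT libraries of the first table. In bulk RNA fewer cells of a type and less RNA per cell cannot be told apart.

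As background, DNA methylation at CpG dinucleotides is copied to the new strand after replication by Dnmt1, which Uhrf1 brings to hemimethylated sites. Dnmt3a and Dnmt3b set new methylation, and Dnmt3l, best known from germ cells and early embryos, stimulates them without having activity of its own. The Tet enzymes oxidise 5-methylcytosine as a step towards its removal, use ascorbate as a cofactor, and take part in the reprogramming of fibroblasts. Slc23a1 and Slc23a2 carry ascorbate into cells, Slc23a1 mainly in epithelia and Slc23a2 in most other tissues.

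The genes differed widely in abundance. Per kilobase of exon, the median level over the 36 reprogramming libraries was 7.47 CPM per kb for Slc23a2 and 5.97 for Dnmt1, followed by 2.19 for Uhrf1, 2.00 for Tet3 and 1.80 for Dnmt3a. Dnmt3l had 0.667, Tet2 0.518, Dnmt3b 0.261, Tet1 0.130 and Slc23a1 0.0600 CPM per kb. Tet3 was thus the most abundant Tet transcript and Dnmt1 the most abundant methyltransferase transcript by this measure. In raw counts Tet1 had 2 to 94 reads in a library, Dnmt3b 8 to 82, Dnmt3l 6 to 86 and Slc23a1 0 to 16, so that small changes of these genes were not detectable at this depth. Between the lowest and the highest group mean of the reprogramming table Uhrf1 spanned 16.7-fold, Tet1 8.39-fold and Dnmt3l 7.56-fold, whereas Slc23a2 spanned 1.55-fold and Dnmt3a 1.93-fold. Slc23a1 spanned 13.7-fold, on at most 16 reads a library.

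**Figure D1:**
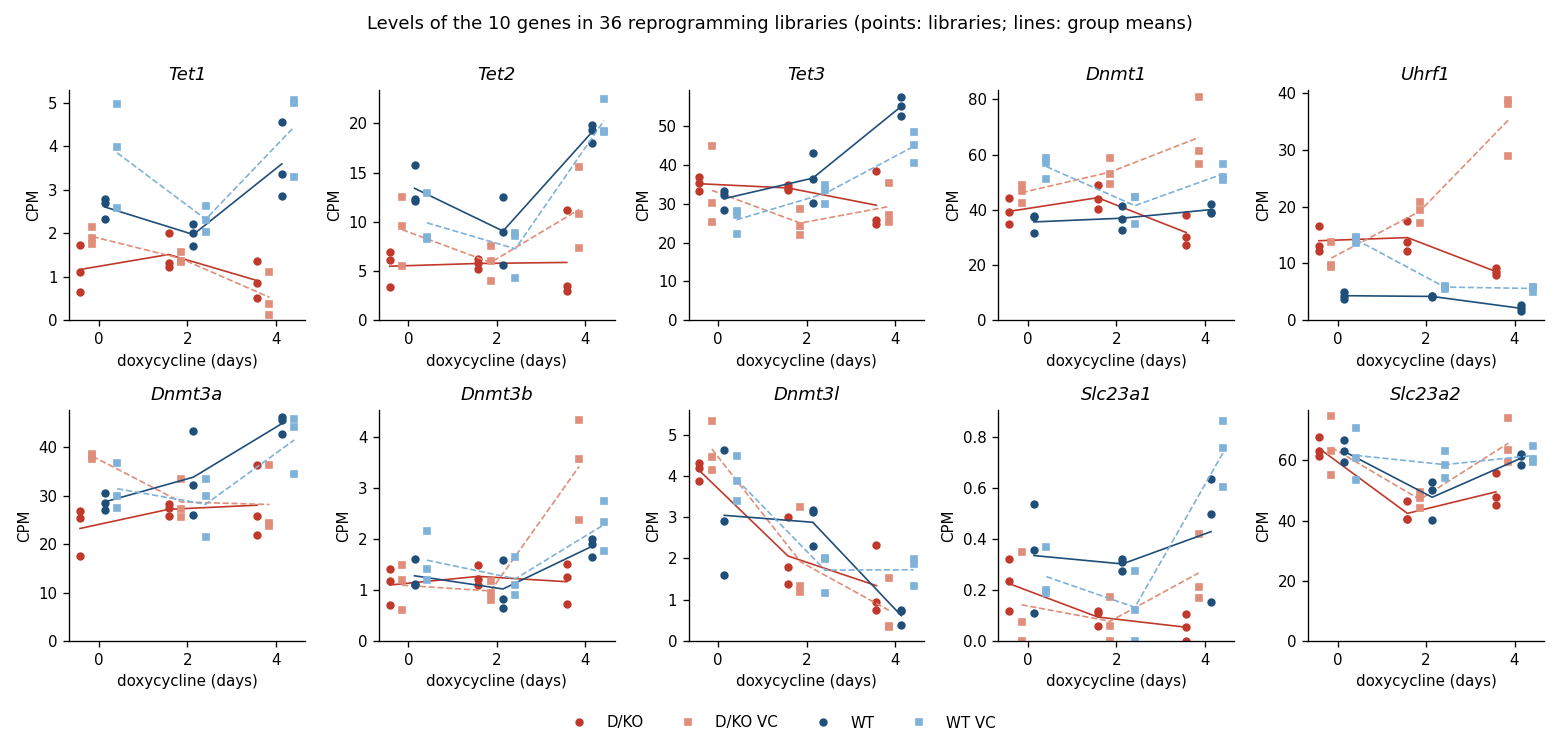
CPM (y axis, from 0) of each of the 10 genes against days of doxycycline (x axis) in the 36 reprogramming libraries, with points for libraries, lines through group means and dashed lines for VC. Uhrf1 reaches 29.0 to 38.7 CPM in D/KO cells at day 4 with VC, above every other library, while Dnmt3l is lower at day 4 than at day 0 without VC in each line.

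The question of VC against no VC was asked at each day in each line, by a two-sided quasi-likelihood test in edgeR over 15832 genes and Benjamini-Hochberg adjustment. In D/KO cells 1 of the 10 genes passed an adjusted p of 0.05 at day 0, where 26.1% of all genes tested did, 1 at day 2 (25.3% of all genes) and 5 at day 4 (34.5%). In WT cells 2 passed at day 0 (29.4% of all genes), 1 at day 2 (26.6%) and 3 at day 4 (22.4%). Of these 13 calls 12 were higher with VC, and 7 belonged to Uhrf1 and Dnmt1. The median log2 fold change over the 10 genes was largest in D/KO cells at day 4, at 0.67, beside 0.0073 over all genes tested.

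**Figure D2:**
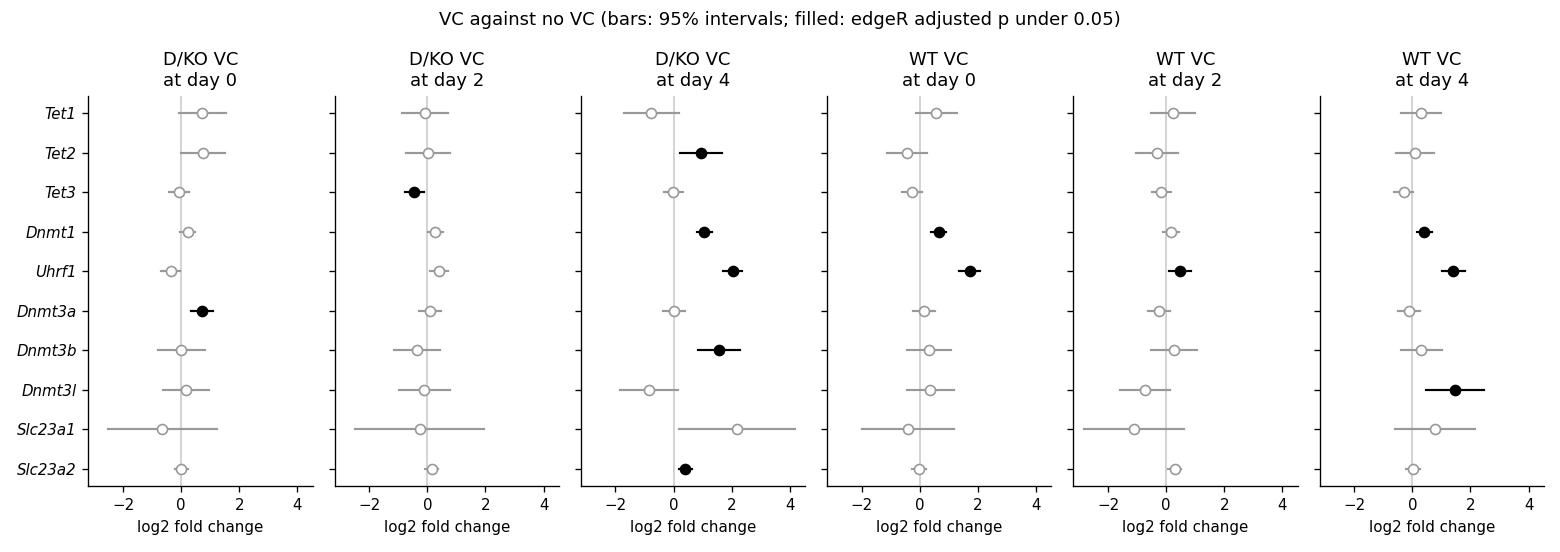
Log2 fold change with VC (x axis) of the 10 genes (rows) in each line at each of the 3 times, with 95% intervals and filled points for an edgeR adjusted p under 0.05. At day 4 Uhrf1 lies at 2.04 (D/KO) and 1.41 (WT), and the intervals of Slc23a1 are the widest.

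Uhrf1 (chr17:56610321-56630486, plus strand, GRCm39) varied most. At day 4 its levels in D/KO cells were 9.23, 8.52 and 7.99 CPM without and 38.0, 38.7 and 29.0 CPM with VC. Every library with VC was more than 3-fold above every library without it, and the log2 fold change was 2.04 ± 0.16 (SE, n = 3 and 3, edgeR adjusted p = 3.34e-12). In WT cells at day 4 the levels were 2.10, 1.59 and 2.65 CPM without and 5.93, 5.82 and 5.06 CPM with VC, again without overlap (log2 fold change 1.41 ± 0.20, edgeR adjusted p = 9.39e-07). The response of the 2 lines was unlike before doxycycline. WT libraries at day 0 had 5.03, 4.30 and 3.68 CPM and rose to 14.4, 14.6 and 13.5 CPM with VC (log2 fold change 1.71 ± 0.17, edgeR adjusted p = 1.01e-09), while D/KO libraries had 12.2, 13.1 and 16.6 CPM without and 9.39, 13.7 and 9.75 CPM with VC, which overlap. The D/KO difference at day 0 was -0.36 (95% interval -0.69 to -0.03, edgeR adjusted p = 0.107), and the VC effects of the lines differed by -2.07 ± 0.24 (D/KO minus WT, edgeR adjusted p = 1.89e-07). At day 2 the effect was 0.48 in WT cells, with an edgeR adjusted p of 0.0481 that became 0.0775 to 0.109 whichever 1 of the 6 libraries was left out, and 0.40 in D/KO cells (edgeR adjusted p = 0.0612).

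From day 0 to day 4 of doxycycline, Uhrf1 moved in opposite directions without and with VC in D/KO cells. Against day 0 of the same arm, 3 of the 10 genes passed at day 4 without VC in D/KO cells (37% of all genes tested) and 6 with VC (54.1%), after 1 and 4 at day 2 (27.4% and 47.4%). In WT cells 4 passed at day 4 in each arm (24.5% of all genes without and 44.7% with VC), after 1 and 3 at day 2 (10.6% and 27.5%). Uhrf1 fell by 0.71 on the log2 scale at day 4 in D/KO cells without VC (SE 0.16, edgeR adjusted p = 0.000639) and rose by 1.69 ± 0.16 with VC (edgeR adjusted p = 3.81e-11), with 0.81 already at day 2 (edgeR adjusted p = 8.00e-05). In WT cells it fell in each arm, by 1.03 on the log2 scale without VC (edgeR adjusted p = 0.000151) and by 1.34 with VC (edgeR adjusted p = 4.45e-08). The day 4 change with VC differed between the lines by 3.03 ± 0.23 (D/KO minus WT, edgeR adjusted p = 3.76e-12), where 5 of the 10 genes and 29.4% of all genes tested passed this test of difference. Without VC 1 gene passed it (14.3% of all genes), and Uhrf1 was not that gene (0.33, 95% interval -0.20 to 0.85). Cell type markers moved in the same comparisons. From day 0 to day 4 without VC in D/KO cells 6 of the 9 fibroblast markers fell and 1 rose, and their sum went from 80061 to 119027 CPM to 37371 to 38976 CPM. All 4 endothelial markers fell there, from 636 to 692 CPM in sum to 245 to 293 CPM, and 4 of 4 keratinocyte markers tested rose, from 0.469 to 1.10 CPM to 42.2 to 57.7 CPM. With VC 7 fibroblast markers fell and 1 rose in D/KO cells, 2 endothelial markers rose and 1 fell, and 3 keratinocyte markers rose. In WT cells the fibroblast sum was 52060 to 53832 CPM at day 0 and 45948 to 48207 CPM at day 4 without VC, and 155628 to 171384 CPM and 60912 to 72032 CPM with VC. The part of these markers in any change with doxycycline given here was not tested.

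Dnmt1 (chr9:20818505-20871184, minus strand) moved less than Uhrf1. In D/KO cells at day 4 it had 30.1, 27.4 and 38.0 CPM without and 80.9, 61.2 and 56.5 CPM with VC. The groups did not overlap, and the log2 fold change was 1.06 ± 0.13 (edgeR adjusted p = 4.82e-08). In WT cells it had 37.8, 37.4 and 31.7 CPM at day 0 and 51.1, 59.0 and 57.0 CPM at day 0 with VC (log2 fold change 0.64 ± 0.13, edgeR adjusted p = 0.000216). At day 4 it had 39.2, 42.0 and 39.03 CPM in WT cells and 56.5, 51.8 and 50.9 CPM with VC, a rise of 0.40 ± 0.13 (edgeR adjusted p = 0.0200) that no longer passed without the first or the third library of day 4 or without the first of day 4 VC (edgeR adjusted p = 0.0671, 0.0701 and 0.0829). Against day 0 VC it rose at day 4 in D/KO cells (0.52 ± 0.13, edgeR adjusted p = 0.000930) and fell at day 2 in WT cells (-0.42 ± 0.13, edgeR adjusted p = 0.0125), the latter not without the second day 0 VC or the first day 2 VC library (edgeR adjusted p = 0.0572 and 0.112). The 2 day 4 changes with VC differed by 0.59 ± 0.18 (edgeR adjusted p = 0.0138), and by 0.42 without the first D/KO day 4 VC library (edgeR adjusted p = 0.0704). The VC effect at day 4 was larger in D/KO than in WT cells by 0.65 ± 0.18 (edgeR adjusted p = 0.0180), a test that 2 of the 10 genes passed beside 9.23% of all genes, against 1 at day 0 (15.3%) and 0 at day 2 (10.9%). At day 2 none passed in DESeq2 either, and 0 had an unadjusted p under 0.05. The day 4 difference of Dnmt1 no longer passed without the first or second D/KO day 4 library or the first of day 4 VC (edgeR adjusted p = 0.0501, 0.0640 and 0.0954).

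The change of the VC effect from day 0 to day 4 was also tested within each line. Among D/KO groups 4 of the 10 genes passed (26.9% of all genes tested), with Uhrf1 at 2.40 ± 0.23 (edgeR adjusted p = 3.83e-10), Dnmt1 at 0.83 ± 0.18 (edgeR adjusted p = 0.000732), Dnmt3b at 1.54 and Dnmt3a at -0.71. The Dnmt3a change no longer passed when any of 7 single libraries was left out (edgeR adjusted p = 0.0628 to 0.191). In WT cells 0 passed by edgeR (15.3% of all genes), 0 by DESeq2 and 0 had an unadjusted p under 0.05, and the change of Uhrf1 was -0.31 (95% interval -0.84 to 0.23).

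Genes of S phase and proliferation, a list of 16 with Mcm2 to Mcm7, Pcna, Mki67, Top2a and Ccna2, were read beside Uhrf1 and Dnmt1. With VC 15 of the 16 were higher in D/KO cells at day 4, 1 at day 0 and 6 at day 2, and 14, 9 and 12 were higher in WT cells at days 0, 2 and 4, with 1 lower at day 2. The summed level of the list was 367 to 449 CPM in D/KO cells at day 4 and 816 to 904 CPM with VC, and 166 to 191 CPM in WT cells at day 0 and 360 to 414 CPM with VC. In D/KO cells at day 0, where Uhrf1 did not pass, it was 298 to 372 CPM without and 355 to 370 CPM with VC. Under doxycycline without VC the list was read beside Uhrf1 as well. In D/KO cells the sum was 461 to 590 CPM at day 2, with 9 of the 16 genes higher than at day 0 and Uhrf1 at 0.06 (95% interval -0.27 to 0.38). At day 4 there 2 of the 16 were higher and 0 lower, while Uhrf1 fell. In WT cells at day 4 the sum was 177 to 191 CPM, which overlaps day 0, with 1 gene higher and 3 lower while Uhrf1 fell. Over the 36 libraries, the 3 genes most like Uhrf1 among 12891 with at least 1 CPM on average were Ube2c, Pclaf and Ccna2 (Pearson r of log2 CPM 0.97, 0.97 and 0.97), which act in mitosis, at the replication fork and in the S phase cyclin complex. Those most like Dnmt1 were Atad2, Fancd2 and Smc2 (r = 0.84, 0.82 and 0.81). These libraries share groups of 3 and 1 scaling, and within groups r was 0.60, 0.30 and 0.35 for the Uhrf1 partners. The endothelial markers moved as well in D/KO cells, with 4 of 4 lower with VC at day 0 and at day 2 and 2 higher at day 4. Of the 9 fibroblast markers 6 rose with VC at day 0 in each line, and their sum went from 80061 to 119027 CPM to 183611 to 253183 CPM in D/KO cells and from 52060 to 53832 CPM to 155628 to 171384 CPM in WT cells. The part of proliferation or of these markers in the changes of Uhrf1 and Dnmt1 was not tested.

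**Figure D3:**
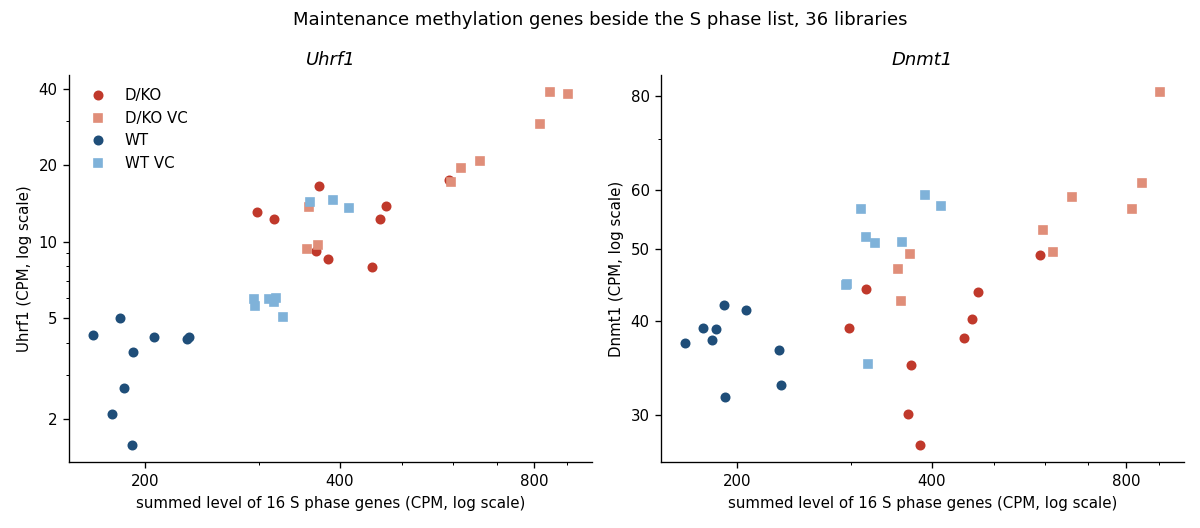
CPM of Uhrf1 and Dnmt1 (y axes, log scale) against the summed CPM of the 16 S phase genes (x axes, log scale) in the 36 reprogramming libraries, with colours for line and VC. The 3 libraries of D/KO day 4 VC lie at 816 to 904 CPM of the list and have the highest Uhrf1, and the WT libraries without VC lie lowest in the list and in Uhrf1, whereas the lowest Dnmt1 is in a D/KO day 4 library.

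The promoters of Uhrf1 and Dnmt1 are shown because both genes rose with VC in D/KO cells at day 4 and in WT cells at days 0 and 4. They did not move together throughout, with r of log2 CPM between them at 0.56 over the 36 libraries and 0.031 within groups. In WT cells without VC Uhrf1 fell at day 4 while Dnmt1 was at 0.17 against day 0 (95% interval -0.09 to 0.43). RefSeq windows of 250 bases before to 50 after a start (GRCm38.p6) were held for 9 of the 10 genes, 17 windows in all, and were searched on both strands for 4 forms of the E2F motif, TTTCCCGC, TTTGGCGC, TTTCGCGC and TTTGCCGC. E2F factors are the transcription factors of the G1 to S transition. The motif was present in 2 of the 17 windows, 1 of the 2 of Uhrf1 and 1 of the 3 of Dnmt1, and in 2.26% of 32851 promoters of all genes. Both windows with the motif lie downstream of another start of the same gene, whose window held no match. Those other windows are chr17:56303087-56303386 for Uhrf1 and chr9:20952930-20953229 for Dnmt1. Read from those starts, the stretches shown are not upstream sequence. The 250 bases before the starts of the 2 windows with the motif read as follows, with the motif in capitals:
Uhrf1, chr17:56304063-56304312, plus strand: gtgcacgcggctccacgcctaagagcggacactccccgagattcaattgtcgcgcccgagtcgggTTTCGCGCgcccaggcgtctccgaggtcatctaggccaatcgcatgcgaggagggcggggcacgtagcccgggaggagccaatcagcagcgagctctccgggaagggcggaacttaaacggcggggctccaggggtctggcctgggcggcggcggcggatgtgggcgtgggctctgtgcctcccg
Dnmt1, chr9:20952624-20952873, minus strand: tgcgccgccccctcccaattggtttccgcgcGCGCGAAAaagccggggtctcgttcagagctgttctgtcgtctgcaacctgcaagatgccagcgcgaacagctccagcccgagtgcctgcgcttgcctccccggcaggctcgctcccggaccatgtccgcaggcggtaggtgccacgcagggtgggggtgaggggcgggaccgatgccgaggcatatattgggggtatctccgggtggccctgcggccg
Relative to the start that its own window was drawn around, the Uhrf1 match begins at -185 and the Dnmt1 match, which reads on the other strand, at -219. Another Dnmt1 match, TTTGGCGC, begins at 33, outside the stretch shown, and no 2 matches overlap. Each of these windows holds 33 CpG dinucleotides, more than or as many as 92.3% of all promoters. The other window of Uhrf1 holds 12, and the others of Dnmt1 hold 12 and 2. The 3 windows of Dnmt3l hold 6, 4 and 3, beside a median of 7 over all promoters. A match describes letters in a window and is not evidence of binding.

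Among the de novo enzymes, Dnmt3b (chr2:153491370-153529650, plus strand) rose in 1 group. At day 4 D/KO cells had 1.25, 0.732 and 1.51 CPM without and 4.33, 3.57 and 2.37 CPM with VC, which is 23, 14 and 28 reads against 82, 64 and 45. The 3 libraries with VC were the 3 highest of D/KO cells, and the log2 fold change was 1.55 ± 0.36 (edgeR adjusted p = 0.000728). Against day 0 VC the rise was 1.62 ± 0.37 (edgeR adjusted p = 0.000302). In WT cells at day 4 Dnmt3b had 2.00, 1.91 and 1.66 CPM without and 2.32, 2.74 and 1.78 CPM with VC, which overlap (log2 fold change 0.30, 95% interval -0.41 to 1.00). The VC effect at day 4 was not shown to differ between the lines (1.26, 95% interval 0.25 to 2.26, edgeR adjusted p = 0.115). The increase of the D/KO effect from day 0 to day 4 (1.54, edgeR adjusted p = 0.0292) no longer passed when any of 5 single libraries was left out (edgeR adjusted p = 0.0587 to 0.0930).

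Dnmt3a (chr12:3856007-3964443, plus strand), the more abundant de novo enzyme, changed before doxycycline in D/KO cells. Its levels were 26.8, 25.5 and 17.5 CPM at day 0 and 37.6, 38.3 and 38.7 CPM with VC, without overlap (log2 fold change 0.72 ± 0.19, edgeR adjusted p = 0.00404). Without the third day 0 library, the lowest, the log2 fold change was 0.55 (edgeR adjusted p = 0.0507). At day 4 D/KO cells had 25.9, 21.9 and 36.4 CPM without and 36.5, 24.3 and 23.9 CPM with VC, with no difference in mean (0.01, 95% interval -0.37 to 0.39). In WT cells Dnmt3a rose with doxycycline from 30.7, 27.0 and 28.6 CPM to 42.8, 46.2 and 45.8 CPM at day 4 (log2 fold change 0.64 ± 0.18, edgeR adjusted p = 0.00906), and in the VC arm the change was 0.40 (edgeR adjusted p = 0.0773). The day 4 change with VC differed between the lines by -0.84 ± 0.26 (D/KO minus WT, edgeR adjusted p = 0.0147). The D/KO change alone was -0.44 (edgeR adjusted p = 0.0469), which did not pass in DESeq2 (adjusted p = 0.0637) or without any of 5 single libraries (edgeR adjusted p = 0.0757 to 0.198). With the share of counts in long genes as a covariate, chosen after seeing the data, it was -0.09 (edgeR adjusted p = 0.546).

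Dnmt3l (chr10:77877781-77899456, plus strand) fell with doxycycline in every arm. In D/KO cells it had 4.32, 3.87 and 4.18 CPM at day 0, 1.38, 1.80 and 3.00 CPM at day 2 and 0.760, 0.941 and 2.32 CPM at day 4. No library at day 2 or day 4 reached the day 0 range, with log2 fold changes of -0.995 for day 2 (edgeR adjusted p = 0.0690) and -1.62 ± 0.43 for day 4 (edgeR adjusted p = 0.00248). With VC it had 4.47, 4.14 and 5.33 CPM at day 0 and 0.370, 0.334 and 1.53 CPM at day 4, a log2 fold change of -2.62 ± 0.46 (edgeR adjusted p = 8.56e-06). In WT cells the levels were 1.60, 4.62 and 2.91 CPM at day 0 and 0.716, 0.742 and 0.386 CPM at day 4 (log2 fold change -2.29 ± 0.47, edgeR adjusted p = 0.000364). With VC they were 4.49, 3.87 and 3.39 CPM at day 0 and 1.86, 1.98 and 1.34 CPM at day 4, a fall of 1.18 on the log2 scale (SE 0.42, edgeR adjusted p = 0.0209) that no longer passed without the first day 0 VC or the third day 4 VC library (edgeR adjusted p = 0.0679 and 0.0868). The 2 WT falls were not shown to differ in size. WT cells at day 4 thus had more Dnmt3l with VC than without (1.47 ± 0.49, edgeR adjusted p = 0.0273), and D/KO cells did not (-0.83, 95% interval -1.83 to 0.16). The VC effects of the lines at day 4 differed by -2.30 ± 0.70 (D/KO minus WT, edgeR adjusted p = 0.0297), but this rests on 6 to 43 reads a library, and leaving out 1 library at a time moved it from -3.37 to -1.65 and gave an edgeR adjusted p of up to 0.139. The WT difference at day 4 likewise no longer passed without the first or the third library of day 4 or the first or second of day 4 VC (edgeR adjusted p = 0.0545, 0.128, 0.0680 and 0.0882).

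At day 2 with VC Dnmt3l was also lower than at day 0 with VC, with log2 fold changes of -1.27 in D/KO and -1.18 in WT cells (edgeR adjusted p = 0.0115 and 0.0327), calls lost without the first or second day 2 VC library in D/KO cells (edgeR adjusted p = 0.0675 and 0.0725) and without any of 5 libraries in WT cells (0.0516 to 0.141). Of the exon bases of Dnmt3l 2.18% overlap Aire on the other strand.

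Tet1 (chr10:62640349-62744775, minus strand) was the least abundant Tet gene and fell in 1 arm. D/KO cells with VC had 2.14, 1.88 and 1.75 CPM at day 0 and 1.11, 0.111 and 0.369 CPM at day 4, which is 33, 25 and 25 reads against 21, 2 and 7. All libraries at day 4 were below those at day 0, with a log2 fold change of -1.84 ± 0.44 (edgeR adjusted p = 0.000571). The size rests on few reads, and it was -2.94 without the first day 4 VC library and -1.37 without the second, past the threshold in both cases. WT cells with VC had 2.59, 4.98 and 3.98 CPM at day 0 and 4.998, 3.29 and 5.06 CPM at day 4, which overlap (0.21, 95% interval -0.48 to 0.90). The 2 changes differed by -2.04 ± 0.56 (edgeR adjusted p = 0.00502). VC against no VC did not pass for Tet1 at any day in either line. At day 4 in D/KO cells the difference was -0.76 (95% interval -1.70 to 0.18), and -1.88 without the first day 4 VC library (edgeR adjusted p = 0.00692).

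Tet2 (chr3:133169440-133250900, minus strand), which unlike Tet1 and Tet3 has no CXXC domain of its own, stood high in WT cells at day 4. It had 15.7, 12.3 and 12.2 CPM at day 0, 19.3, 19.8 and 17.997 CPM at day 4 and 22.4, 19.15 and 19.2 CPM at day 4 with VC. The day 4 groups lay above every other library of the table, yet the change from day 0 passed in the VC arm (1.03 ± 0.34, edgeR adjusted p = 0.0133) and not without VC (0.51, 95% interval -0.17 to 1.18). The VC arm's change no longer passed without the first or the third day 0 VC library (edgeR adjusted p = 0.0598 and 0.0581). D/KO cells at day 4 had 3.53, 2.93 and 11.2 CPM without and 15.6, 7.35 and 10.8 CPM with VC. These ranges overlap through the third library, and the difference of 0.94 ± 0.35 (edgeR adjusted p = 0.0375) no longer passed without any 1 of 4 libraries, with edgeR adjusted p of 0.194 and 0.216 without the first and second of day 4 and 0.225 and 0.0585 without the first and the third of day 4 VC.

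Tet3 (chr6:83339355-83436066, minus strand) rose with doxycycline in WT cells only among the arms tested. It had 32.1, 28.5 and 33.3 CPM at day 0 and 52.5, 55.0 and 57.5 CPM at day 4 without VC, and 22.3, 28.1 and 27.1 CPM and 48.4, 40.5 and 45.1 CPM with VC. Neither pair of groups overlaps, and the log2 fold changes were 0.81 ± 0.16 (edgeR adjusted p = 0.000215) and 0.79 ± 0.16 (edgeR adjusted p = 0.000160). In D/KO cells Tet3 had 35.2, 33.3 and 36.8 CPM at day 0 and 25.7, 24.7 and 38.4 CPM at day 4. The changes of the lines differed by -1.06 ± 0.23 without VC (D/KO minus WT, edgeR adjusted p = 0.00112) and by -0.98 ± 0.23 with VC (edgeR adjusted p = 0.00138). The 1 call with VC against no VC, at day 2 in D/KO cells (33.9, 33.4 and 34.7 CPM against 24.3, 22.0 and 28.7 CPM, -0.44, edgeR adjusted p = 0.0433), did not pass in DESeq2 (adjusted p = 0.0590) or without any of 5 of the 6 libraries (edgeR adjusted p = 0.0802 to 0.178). Against day 0 VC the change at day 2 in D/KO cells was -0.42 (edgeR adjusted p = 0.0358), and -0.15 without the third day 0 VC library (edgeR adjusted p = 0.489). Of the exon bases of Tet3 9.06% overlap Bola3 on the other strand, and whether counting used strand is not given in the sources used here.

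Tet2, Tet3 and Dnmt3a have 16870, 16695 and 16642 bases of exon, and their levels moved with the share of a library's counts that fell in genes with at least 10 kb of exon. This share was 11.4% to 16.8% in the reprogramming libraries and 8.14% to 15.7% in the inhibitor libraries. Within groups, the correlation of log2 level and log2 share was 0.81 for Tet2, 0.70 for Tet3, 0.84 for Dnmt3a and 0.78 for Dnmt1 over the 36 libraries, and -0.02 for Uhrf1 and 0.12 for Dnmt3l. Over the 24 inhibitor libraries it was 0.91, 0.95, 0.95 and 0.92 for the same 4 genes, 0.97 for Slc23a2 and 0.84 for Uhrf1. The third D/KO day 4 library, high in Tet2, Tet3 and Dnmt3a, had a share of 15.8% beside 14.0% and 11.6% in its group. The WT day 4 libraries without VC, highest in Tet3, had 16.4% to 16.8%, whereas those with VC, the highest group for Tet2, had 14.3% to 15.96%. With the share as a covariate, chosen after seeing the data, the WT rise of Tet3 at day 4 was 0.61, that of Dnmt3a 0.36, and the VC effect on Tet2 in D/KO cells at day 4 was 1.80, each past the threshold, while the difference between lines for Dnmt3a at day 4 with VC was -0.39 (edgeR adjusted p = 0.0856). What sets the share was not tested.

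**Figure D4:**
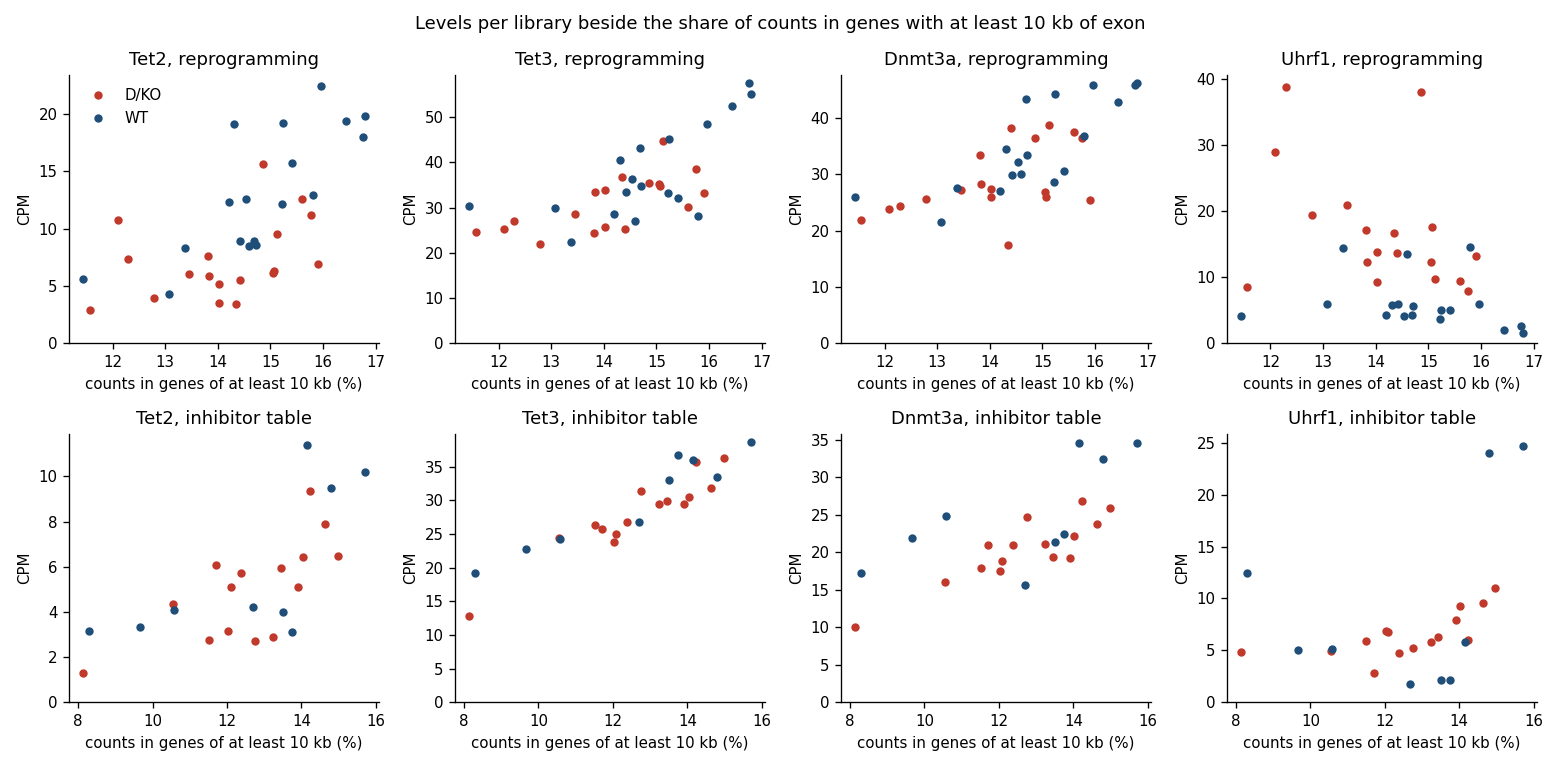
CPM (y axes, from 0) of Tet2, Tet3, Dnmt3a and Uhrf1 against the percentage of each library's counts in genes with at least 10 kb of exon (x axes), for the 36 reprogramming libraries (top) and the 24 inhibitor libraries (bottom). Tet2, Tet3 and Dnmt3a are higher in libraries with a higher share, which runs from 8.14% to 16.8%, and Uhrf1 of the reprogramming libraries shows no such slope within groups.

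Of the ascorbate transporters, Slc23a2 (chr2:131894416-131987028, minus strand) was the most abundant gene of the 10 per kilobase and varied little. D/KO cells had 61.2, 62.9 and 67.7 CPM at day 0, 40.4, 40.4 and 46.4 CPM at day 2 and 47.7, 45.1 and 55.7 CPM at day 4. All libraries with doxycycline and no VC were below those of day 0, with log2 fold changes of -0.59 ± 0.12 (edgeR adjusted p = 0.000111) and -0.37 ± 0.11 (edgeR adjusted p = 0.00958). The second of these no longer passed without the second day 4 library (-0.31, edgeR adjusted p = 0.0588) or in a fit of the compared groups alone (-0.34, edgeR adjusted p = 0.0705). With VC it was lower at day 2 than at day 0 VC (-0.45, edgeR adjusted p = 0.00139). With VC at day 4 it had 74.0, 59.6 and 63.5 CPM, above the group without VC (0.41 ± 0.11, edgeR adjusted p = 0.00498) and level with day 0 VC (0.03, 95% interval -0.20 to 0.26). In WT cells it fell at day 2 without VC, from 66.6, 59.5 and 63.0 CPM to 52.7, 40.2 and 50.2 CPM (-0.40 ± 0.11, edgeR adjusted p = 0.0171), a fall that no longer passed without the second day 2 library (-0.29, edgeR adjusted p = 0.174) or the first day 0 library (edgeR adjusted p = 0.0927). The second WT day 2 library had 12.5 CPM of Pou5f1 beside 41.5 and 48.8 CPM in its group. Its share of counts in long genes, 11.4%, was the lowest of the reprogramming libraries. VC against no VC did not pass for Slc23a2 in WT cells, with 0.30 at day 2 (edgeR adjusted p = 0.0525). Slc23a1 (chr18:35747657-35760297, minus strand) had at most 16 reads in any library and 0 in 4 of the 36, passed the filter through its few higher libraries, and was called in no comparison. Its highest group was WT day 4 VC, with 0.755, 0.603 and 0.861 CPM.

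Between the untreated lines at day 0, 3 of the 10 genes passed beside 43.2% of all genes tested. D/KO cells had more Uhrf1 (12.2, 13.1 and 16.6 against 5.03, 4.30 and 3.68 CPM, log2 difference 1.69 ± 0.17, edgeR adjusted p = 5.74e-10), and 13 of the 16 S phase genes were higher. They had less Tet2 (6.12, 6.92 and 3.42 against 15.7, 12.3 and 12.2 CPM, -1.29 ± 0.36, edgeR adjusted p = 0.00386) and less Tet1 (1.74, 1.11 and 0.648 against 2.32, 2.79 and 2.71 CPM, -1.16 ± 0.39, edgeR adjusted p = 0.0142). None of these 3 pairs of groups overlaps, but neither do those of Tet3 and Dnmt3a, which were not called. The share of all genes without overlap was not counted for this comparison. The Tet1 call was lost without the third D/KO library (-0.87, edgeR adjusted p = 0.103). The endothelial markers, of which 4 of 4 were higher in D/KO cells, and the leukocyte markers, of which 3 of 3 tested were lower, moved with this comparison. So did the muscle markers, with 20.8 to 34.4 CPM in sum in D/KO and 1.82 to 3.01 CPM in WT cells. The part of these markers in it was not tested. In the second table, with other animals, 3 of the 9 genes tested passed between control D/KO and control WT cells (34.6% of all genes tested). Tet1 was again lower in D/KO cells (2.38, 2.68 and 2.24 against 4.77, 7.94 and 4.70 CPM, -1.25 ± 0.30, edgeR adjusted p = 0.00247) and Uhrf1 again higher (0.76, edgeR adjusted p = 0.0391), while Tet2 did not differ detectably (0.05, 95% interval -0.95 to 1.05). Slc23a2 was higher in these D/KO cells (41.1, 53.1 and 47.0 against 27.7, 35.4 and 21.4 CPM, 0.74 ± 0.25, edgeR adjusted p = 0.0244). The endothelial markers were again higher in D/KO cells, 4 of 4. The keratinocyte markers summed to 0.937 to 1.12 CPM in control D/KO and 12.1 to 14.4 CPM in control WT cells, the Schwann cell markers to 6.61 to 9.62 and 2.27 to 2.61 CPM, the muscle markers to 10.2 to 12.6 and 2.09 to 3.76 CPM and the melanocyte markers to 1.23 to 1.76 and 3.58 to 4.38 CPM. Their part in this comparison was not tested. The Uhrf1 call was lost without any of 5 of the 6 libraries (edgeR adjusted p = 0.0532 to 0.158) and the Slc23a2 call without any of 4 (0.0548 to 0.129).

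The inhibitors of ALK5 were compared with control D/KO cells to ask what TGFb receptor signalling does to these transcripts without reprogramming. Dnmt3l passed with each ALK5 inhibitor and was the 1 gene of the 9 tested to pass with Repsox (20.7% of all 15652 genes tested) and with Vactosertib (18.1%). With A83-01 2 genes passed (27.5%), and with DMH-1 0 passed by edgeR (7.25%) or by DESeq2, with 3 at an unadjusted p under 0.05. Dnmt3l had 3.58, 4.39 and 4.96 CPM in control cells, 1.37, 1.79 and 1.76 CPM with Repsox, 1.66, 1.40 and 1.72 CPM with Vactosertib and 0.769, 1.79 and 1.92 CPM with A83-01. Every library with an ALK5 inhibitor was below every control library, and the log2 fold changes were -1.39 ± 0.31 (edgeR adjusted p = 0.00257), -1.43 ± 0.32 (edgeR adjusted p = 0.00268) and -1.52 ± 0.31 (edgeR adjusted p = 0.000843). With DMH-1 it had 3.04, 3.58 and 3.34 CPM (-0.37, 95% interval -0.99 to 0.25, edgeR adjusted p = 0.580). These libraries were also below all controls, the highest at 3.575 CPM against a lowest control of 3.577 CPM, and the difference between DMH-1 and the ALK5 inhibitors was not tested. All 4 comparisons share the same 3 control libraries. With the long gene share as a covariate, chosen after seeing the data, 5 further results passed. These were Slc23a2 with Repsox (0.37), Vactosertib (0.30) and A83-01 (0.20), and Tet2 (-0.89) and Uhrf1 (-0.51) with DMH-1. Uhrf1 fell with A83-01, from 6.81, 9.51 and 10.98 CPM to 2.81, 6.03 and 4.77 CPM (-0.999 ± 0.28, edgeR adjusted p = 0.0104), and 11 of the 16 S phase genes fell with it, beside 2, 4 and 4 with Repsox, Vactosertib and DMH-1. The Uhrf1 call was lost without the third control or the first A83-01 library (edgeR adjusted p = 0.0569 and 0.0720). Markers of several cell types moved in the same comparisons. The 4 endothelial markers fell with A83-01, from 273 to 322 CPM in sum to 87.0 to 128 CPM. Of 9 fibroblast markers 4 fell and 1 rose with each ALK5 inhibitor, and their sum was 79191 to 84468 CPM in control cells, 40601 to 48201 CPM with Repsox, 49086 to 52566 CPM with Vactosertib and 42380 to 45066 CPM with A83-01. Of 3 Schwann cell markers tested 3, 2 and 3 rose with Repsox, Vactosertib and A83-01, and the list summed to 6.61 to 9.62 CPM in control cells, 17.3 to 18.7 CPM with Repsox, 13.8 to 17.8 CPM with Vactosertib and 30.8 to 39.1 CPM with A83-01. With DMH-1 the Schwann cell list summed to 10.97 to 13.9 CPM, with 0 of 3 called, and 1 fibroblast marker rose and 1 fell. The endothelial markers summed to 339 to 408 CPM with DMH-1, above the 273 to 322 CPM of control cells. Keratinocyte, leukocyte, melanocyte and muscle lists are not given for the inhibitors. The part of these markers in the results for Dnmt3l and Uhrf1 was not tested.

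**Figure D5:**
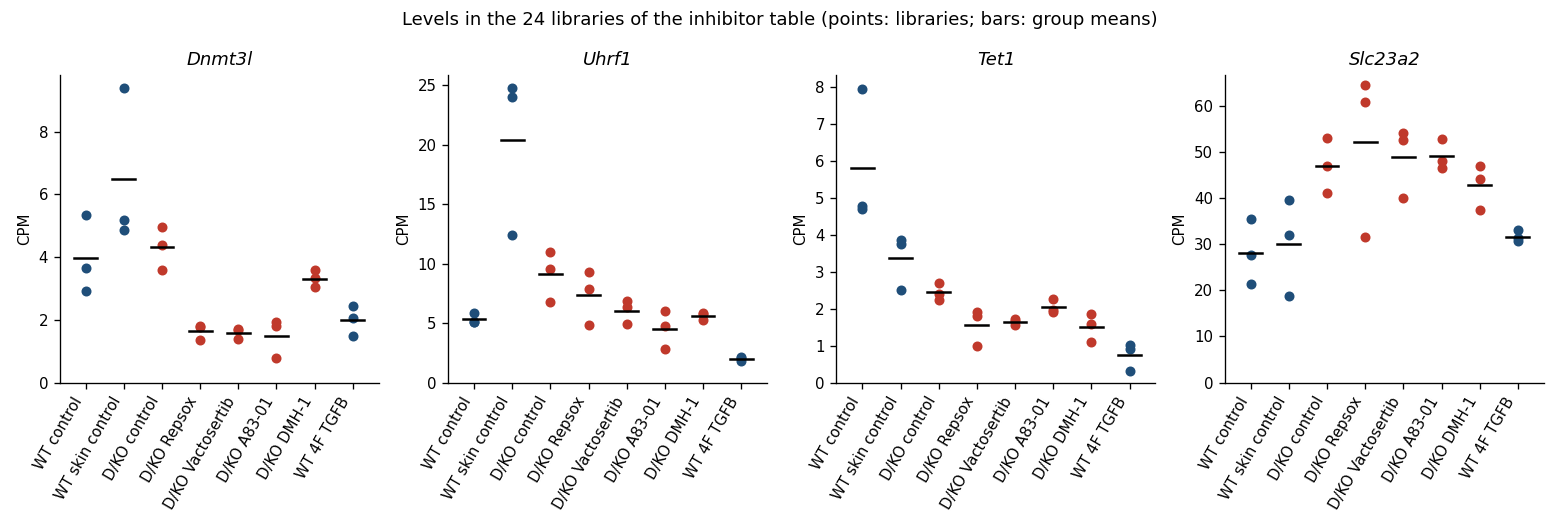
CPM (y axes, from 0) of Dnmt3l, Uhrf1, Tet1 and Slc23a2 in the 8 groups of the inhibitor table (x axes), with points for libraries and horizontal lines for group means. Dnmt3l lies at 0.769 to 1.92 CPM with the 3 ALK5 inhibitors and at 3.58 to 4.96 CPM in control D/KO cells, and Uhrf1 is highest in WT skin fibroblasts.

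The remaining groups of this table bear on the range of the genes. WT skin fibroblasts differed from WT tail tip fibroblasts in 3 of the 9 genes (34.2% of all genes tested), with Uhrf1 at 12.4, 24.7 and 23.98 against 5.11, 5.85 and 5.07 CPM (1.93 ± 0.28, edgeR adjusted p = 1.51e-05), while 15 of the 16 S phase genes were higher. The endothelial markers summed to 134 to 238 CPM in skin and to 29.1 to 42.8 CPM in tail tip cells. The muscle markers summed to 57.4 to 84.1 CPM in skin and to 2.09 to 3.76 CPM in tail tip cells, and the Schwann cell markers to 10.2 to 11.3 CPM and to 2.27 to 2.61 CPM. The part of these markers in the skin differences was not tested. Dnmt1 was higher (0.60) and Tet1 lower (-0.79) in skin, with edgeR adjusted p of 0.0457 and 0.0429, and each call was lost without several single libraries (up to 0.222 and 0.251). Whether the label TGFB means the ligand or an inhibitor, and at what dose, is not given in the sources used here. The 3 libraries labelled TGFB from the WT 4F line differed from WT control in line, age and treatment at the same time, and 4 of the 9 genes passed beside 62.2% of all genes tested, whose median log2 difference was -0.11. Tet1 had 1.01, 0.323 and 0.917 CPM there (-2.94 ± 0.33, edgeR adjusted p = 1.64e-07), the lowest group of the table, and Uhrf1 (-1.41), Dnmt3b (-1.51) and Dnmt3l (-0.99) were lower too. The S phase genes summed to 146 to 156 CPM there and to 216 to 236 CPM in WT control cells. Of the markers, 4 of 4 endothelial ones were lower and 3 of 3 leukocyte ones tested were higher there. The keratinocyte markers summed to 0.688 to 1.19 CPM there beside 12.1 to 14.4 CPM in WT control cells, and the muscle markers to 13.7 to 16.1 CPM beside 2.09 to 3.76 CPM. The part of these markers and of the S phase genes in these differences was not tested. Without the third WT control library the Dnmt3l difference was -0.72 (edgeR adjusted p = 0.0660).

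The groups were ordered by their mean level. Of the 11 pairs of neighbouring groups in the reprogramming table, the library ranges did not overlap in 5 for Uhrf1 and in 1 each for Tet1, Tet2, Tet3 and Dnmt1, and they overlapped in all 11 for the other 5 genes. Over all 15832 genes tested 10.6% of such pairs did not overlap, 57.8% of genes had at least 1 such pair and 3.77% had at least as many as Uhrf1. For Uhrf1 the order ran from WT day 4 (2.11 ± 0.53 CPM, SD, n = 3) through the other WT groups without VC, WT day 4 VC and WT day 2 VC to D/KO day 4 (8.58 ± 0.62), then through a run of groups with overlapping ranges up to D/KO day 2 VC (19.2 ± 1.9), with D/KO day 4 VC (35.2 ± 5.4) apart at the top. For Tet1 the 6 D/KO groups held the 6 lowest means, from 0.530 to 1.92 CPM, and the 6 WT groups the 6 highest, from 1.97 to 4.45 CPM. The genes most like Tet2 over the 36 libraries were Slf2, Thoc2 and Srek1 (r = 0.93, 0.92 and 0.92, and 0.89, 0.87 and 0.82 within groups), and those most like Dnmt3a were Usp48, Trp53inp1 and Malat1 (r = 0.83, 0.80 and 0.79). For Dnmt3l they were B4galt7, Slc41a2 and Tpm2 (0.84, 0.83 and 0.83), for Tet3 Khnyn, Zfhx3 and Marf1 (0.81, 0.80 and 0.79), for Dnmt3b Pnpla6, Pold3 and Ints13 (0.78, 0.78 and 0.76) and for Slc23a2 Casd1, Bltp3b and Erbin (0.78, 0.77 and 0.76). For Slc23a1, which had few reads, they were 6720427I07Rik, Gcfc2 and Slc2a4rg-ps (0.74, 0.73 and 0.72).

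Other genes of the pathway were followed through lists, for which percentages of all genes called are those given above. Of 17 cofactors and readers of DNA methylation, 15 were tested, and with VC 7 were higher and 1 lower in D/KO cells at day 4 and 4 higher and 2 lower in WT cells at day 4. Hells, the remodeller that helps methylate repeats, rose at day 4 by 1.91 (D/KO) and 1.90 (WT) on the log2 scale, and its activator Cdca7 by 1.53 and 1.80, with Cdca7 called in 5 of the 6 comparisons. Cdca7l rose in 4 and fell in 1 (D/KO day 0, -0.83), and Mbd2, a reader of methylated CpG, fell in 5 of the 6, by at most 0.42 on the log2 scale. Zfp57, which protects imprinted methylation, rose at day 4 by 2.44 in D/KO and by 0.65 in WT cells and at day 2 by 1.14 in D/KO cells, but fell at day 2 in WT cells (-1.07). Of 14 tested partners of active demethylation 2 rose and 1 fell in D/KO cells at day 4, and 0 rose and 1 fell in WT cells. The ones that rose were Hmces (1.25) and the glycosylase Tdg (0.65), which excises oxidised methylcytosine, and the one that fell was Cxxc5, a CXXC protein called lower in 4 of the 6 comparisons (-1.17 for D/KO and -0.34 for WT at day 4).

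Transcripts for supply of the methyl donor and for handling of ascorbate were read as 2 further lists. Of 12 tested genes of the S-adenosylmethionine cycle 8 rose and 2 fell with VC in D/KO cells at day 4, and 7 rose and 2 fell in WT cells, with list medians of 0.33 and 0.48 beside 0.0073 and 0.032 over all genes. Mtr, the methionine synthase, rose in all 6 comparisons by 0.57 to 1.01 on the log2 scale, and Ahcy, which clears S-adenosylhomocysteine, in 5. Mtap rose in 5 and Mthfd1 in 4, while Ahcyl1 fell in 4. Shmt1 rose by 0.77 and 0.87 at day 4 in D/KO and WT cells and Shmt2 by 0.71 in D/KO cells, although Shmt2 fell with VC at day 0 in D/KO cells (-0.68) and at day 2 in WT cells (-0.37). Of 9 tested genes of dehydroascorbate uptake and ascorbate recycling 3 rose and 3 fell in D/KO cells at day 4, and 3 rose and 0 fell in WT cells, where 22.4% of all genes passed. The summed level of this list overlapped between D/KO cells without and with VC at day 4. Slc2a3, a glucose transporter that also takes up dehydroascorbate, rose in 5 of the 6 comparisons, by 1.87 and 1.37 at day 4. Txnrd1 rose by 0.79 and 0.57 at day 4 and Cyb561 was at -0.94 in D/KO cells at day 4, while Gsto1 rose in 4 of the 6.

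Readouts on either side of these genes were mixed. Axin2 and Tcf7, targets of Wnt signalling, rose with VC in all 6 comparisons, Axin2 by 2.50 to 7.04 and Tcf7 by 1.26 to 2.36 on the log2 scale. Nkd1 rose at day 0 in D/KO cells (1.63) and fell in 4 others, and Notum rose in D/KO cells at day 4 (3.76). Of 16 germline genes whose promoters are often methylated in somatic cells only 4 passed the filter in each table. The list summed to 90.4 to 95.3 CPM in WT and to 9.19 to 19.9 CPM in D/KO cells at day 0. At day 4 it summed to 71.9 to 75.6 CPM without and 18.2 to 19.8 CPM with VC in WT cells. In D/KO cells these sums were 5.92 to 7.16 and 3.00 to 3.96 CPM. Whether these levels follow promoter methylation was not tested. Ddx4 fell with VC in 4 of the 6 comparisons, by 3.83 and 2.29 on the log2 scale at day 4 in D/KO and WT cells, and Tdrd1 rose in D/KO cells at day 4 (2.52). Of the 11 matched pluripotency genes 1 was tested in each table, and the list summed to at most 13.4 CPM in any library. The keratinocyte markers, of which 2 of 4 tested rose and 0 fell with VC in D/KO cells at day 4, summed to 42.2 to 57.7 CPM there without and to 307 to 438 CPM with VC, and in WT cells at day 4 to at most 13.7 CPM. Krt15 had at most 2 reads and Krt14 made up most of the sum. The endothelial markers, of which 2 of 4 rose, summed to 245 to 293 CPM without and 467 to 666 CPM with VC in D/KO cells at day 4. Lower with VC there were the muscle markers, at 11.2 to 14.0 CPM in sum without and 1.69 to 3.18 CPM with VC. So were the Schwann cell markers, at 6.85 to 8.09 and 2.43 to 2.84 CPM. The part of these markers in the D/KO results at day 4 was not tested.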

How the data were processed

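RNA of 60 mouse fibroblast libraries (20 groups of 3) was sequenced by the submitters. The authors deposited raw read counts per gene in 2 tables, and their processing notes name FastQC, Trim Galore, HISAT2, featureCounts of the Subread package and GRCm39. Versions, strand setting, treatment of multimapping reads and annotation release are not given in the sources used here. The authors' own comparisons used DESeq2 and are not used here. All count columns were matched to samples by their titles.

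Each table was fitted on its own with edgeR 4.0.16 (R 4.3.3, limma 3.58.1): TMM scaling, genes kept by filterByExpr (minimum count 10, total 15), 1 mean per group, two-sided quasi-likelihood tests of 29 comparisons and Benjamini-Hochberg adjustment over all genes tested, called at 0.05. Differences of log2 fold changes between lines or days are contrasts of the same fit. CPM used TMM-scaled totals, and CPM per kb the union of exons. Levels set across tables were scaled separately. Gene symbols were matched for 98.7% of identifiers. On counts simulated for D/KO VC at day 4 over 15832 genes, 82% of genes changed by a log2 of 1 and 98% of those changed by 2 were called, with 0.0602% of unchanged genes. For Repsox against control over 15652 genes these shares were 63% and 93%, with 0.0267% of unchanged genes.

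The 10 genes are found by symbol, a rule that uses no measured value, but they and the gene lists were chosen with earlier results of these data known. Of the lists, genes are named that were called in the same direction in at least 4 of the 6 VC comparisons, or that had the 3 largest changes of their list among those called at day 4. The genes whose log2 CPM (prior count 2) correlated best with a member were taken as most like it; those of Tet1 are not reported here. Alternatives were DESeq2 1.42.0, its size factors, other filters, a minimum log2 fold change of 1, fits of only the groups compared, leaving out each library, and, added after seeing the data, the share of counts in long genes as a covariate.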

Additional observations from a re-analysis of the deposited data

Results flagged for a closer look

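Tests of a difference between lines or between days passed an edgeR adjusted p of 0.05 for 13 results, given as differences of log2 fold changes. For the VC effect in D/KO minus WT cells these were Uhrf1 at day 0 (-2.07), Dnmt1 at day 4 (0.65) and Dnmt3l at day 4 (-2.30). The change from day 0 to day 4, D/KO minus WT, differed for Tet3 without VC (-1.06). With VC it differed for Uhrf1 (3.03), Dnmt1 (0.59), Tet1 (-2.04), Tet3 (-0.98) and Dnmt3a (-0.84). The VC effect at day 4 minus that at day 0 in D/KO cells differed from 0 for Uhrf1 (2.40), Dnmt3b (1.54), Dnmt1 (0.83) and Dnmt3a (-0.71). The Uhrf1 results, and those of Tet3 without VC and Tet1, passed under every alternative that gave a value. In the 9 differences between D/KO and WT cells, line, cassette source, sex, age and Ercc1 genotype cannot be told apart.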

How the results depend on the processing

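No result for a single gene changed sign among those past the threshold under any alternative run. The 13 calls of VC against no VC became 6 with a log2 fold change of at least 1 required, and 11 to 14 when 1 library was left out. The 26 calls of doxycycline against day 0 became 17 with at least 10 counts required in every library, which leaves fewer genes tested, and 13 with the minimum fold change, with 23 to 28 over left-out libraries. The 3 differences between lines in the VC effect became 6 without a filter on low counts and 7 with the long gene share as a covariate (2 to 4 over left-out libraries). The 6 differences between lines in the day 4 change became 3 with the minimum fold change (5 to 7). The 4 changes of the VC effect with day became 2 with only the groups compared, 2 with the minimum fold change and 2 without the D/KO day 0 VC replicate 2 (2 to 5). The 3 calls between lines at day 0 ranged from 2 to 3. The 4 calls of inhibitors became 9 with the long gene share (3 to 4), and the 10 calls between control groups became 6 with at least 10 counts in every library and 5 with the minimum fold change (7 to 10). Over all comparisons the long gene share as a covariate added 31 calls and ended 3, with 18 calls of VC, 33 of doxycycline and 15 between control groups. The causes of these changes were not tested except where the construction is named. DESeq2 in place of edgeR ended 3 single calls and added 2. No paired analysis was possible because library numbers run through the whole series and the labels tie no library of one group to one of another. Counts of at most 94 for Tet1, 82 for Dnmt3b, 86 for Dnmt3l and 16 for Slc23a1 in the reprogramming table limit what could be detected for these genes.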
